A study of Harpegnathos saltator with 75 samples.

Results

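The ovaries of workers of the jumping ant Harpegnathos saltator on day 10 of a dueling contest were compared with worker ovaries taken on day 0, its start. The comparison holds 10 libraries of polyadenylated RNA, 5 from each group, out of 25 ovary libraries and 75 libraries in all. They were chosen by tissue and day, and at day 10 also by caste, as the library names give them. The study also sampled brain without its visual part and fat body, and at day 3 and day 10 it sampled both ants that stayed workers and ants on the way to becoming gamergates. Both groups compared here carry the caste label worker, and the labels name no treatment, strain or age. Nothing in the labels says that each of the 5 libraries came from its own ant, and the p-values then reflect only how these samples scatter, which may be technical.

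When a colony of this species loses its reproductive, workers engage in antennal dueling, and the winners become gamergates, which are workers that mate and lay eggs. An ant ovary is made of ovarioles, in which germ cells and their nurse cells are wrapped in somatic follicle cells, so an ovary sample mixes germ line and somatic tissue. Yolk proteins reach the growing oocyte from the fat body, the main metabolic and storage tissue of insects. In whole tissue, fewer cells of a type and less RNA per cell cannot be told apart, and this holds for every level given here.

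The 5 day 0 libraries held 1280173 to 4677916 reads assigned to genes (median 2944504), and the 5 day 10 worker libraries 737818 to 3558381 (median 1093178). All 5 day 10 worker libraries were on lane 1 of the flow cell used for the day 10 samples. Of the day 0 libraries, number 3 shared that lane and number 4 was on lane 2 of the same flow cell, while numbers 1 and 5 (lane 1) and number 2 (lane 2) were on the flow cell used for day 3. Reads that fell on more than 1 gene were 0.812% to 0.919% of a day 0 library and 0.993% to 1.34% of a worker library. The table names genes only by identifier, and 0 of its 20659 identifiers matched the RefSeq gene table used for names. No role is therefore given to any gene, the labelled tissue could not be checked against known marker genes, and genes that overlap, lie antisense to another or have a near-identical copy could not be told from the rest.

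Between day 0 and day 10 the transcript levels of a large part of the genes measured in the worker ovary changed. Of 9150 genes with enough reads to test, 3976 (43.5%) passed the threshold, an adjusted p below 0.05 in edgeR's quasi-likelihood test. Of these, 1939 genes (21.2%) were higher and 2037 (22.3%) lower in the day 10 workers. Which direction held more genes turned with the method, with 2169 higher and 1773 lower under RLE scaling, 2294 and 1908 with DESeq2, and 1766 and 1546 at a minimum count of 30. The increases were the larger. Their median was 0.91 on the log2 scale (quartiles 0.62 and 1.30), against -0.66 for the decreases (quartiles -0.84 and -0.49). Over all genes tested the median was -0.02.

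Large changes were mostly increases. Among called genes, 846 (9.25% of those tested) were more than 2-fold higher and 253 (2.77%) more than 2-fold lower. Past 4-fold the counts were 129 and 16, and past 8-fold they were 38 and 8. The 5 worker libraries lay wholly above or wholly below the 5 day 0 libraries for 2077 genes (22.7%), of which 831 were called higher, 1080 were called lower and 166 were not called.

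The lane of sequencing moved with the comparison. With flow cell and lane as a term in the fit, 0 genes passed the threshold (edgeR, 1468 at an unadjusted p below 0.05), although 99.4% of the 3976 called genes kept their direction. The median of their absolute log2 differences was 0.65 in place of 0.74 and that of their standard errors (SE) 0.347 in place of 0.197, and the lane term rests on few day 0 libraries. Against the 2 day 0 libraries of the same flow cell, 368 genes were called higher and 700 lower, with 99.9% of the 3976 in the same direction. Against the single day 0 library of the same lane, 0 genes were called (1491 at an unadjusted p below 0.05) and 99.4% kept their direction. These fits reuse libraries that chose the 3976 genes, so a kept direction was favored in advance and is only a description. How far lane accounts for the differences was not tested.

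**Figure D1:**
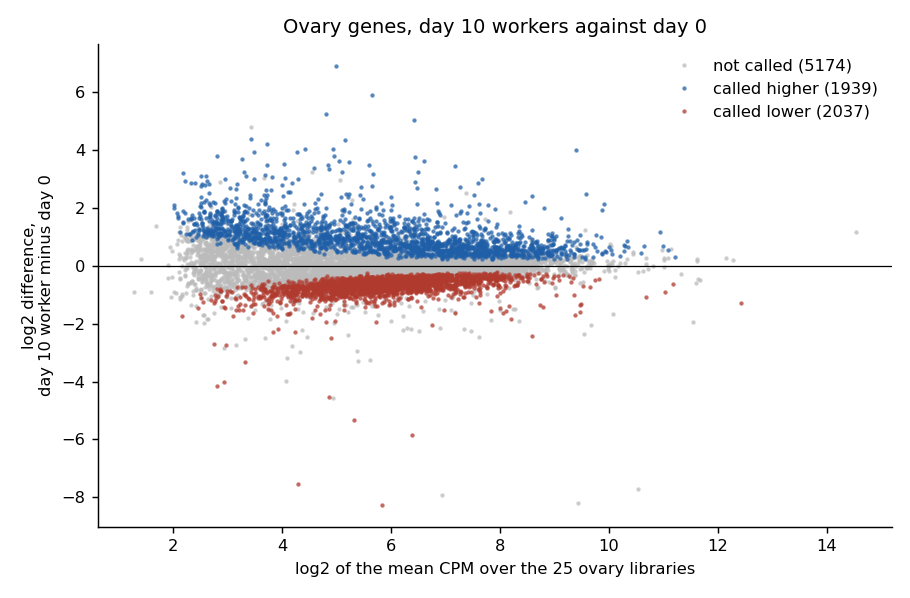
Each point is 1 of the 9150 genes tested, placed by the log2 of its mean level over the 25 ovary libraries, in counts per 1e+06 assigned reads (CPM), on the horizontal axis and its log2 difference, day 10 worker minus day 0, on the vertical axis. The 1939 genes called higher reach 6.92 and the 2037 called lower reach -8.26, and 442 of the 846 increases over 2-fold are in the lowest of the 4 level classes.

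How often a gene changed, and which way, varied with its level. The genes were divided by mean level over the 25 ovary libraries into 4 classes of nearly equal size. In the lowest class, from 2.43 to 20.7 counts per 1e+06 assigned reads (CPM), 570 of 2287 genes (24.9%) were higher and 230 (10.1%) lower. In the second class 385 (16.8%) were higher and 683 (29.9%) lower, and in the third 372 (16.3%) were higher and 721 (31.5%) lower. The most abundant class, from 119.0 to 23893.5 CPM, again held more increases, with 612 genes (26.7%) higher and 403 (17.6%) lower. Among the genes tested, decreases were thus the more frequent in the middle of the range and increases at both ends. The lowest class held 442 of the genes that were more than 2-fold higher. A gene of this class could have enough reads to be tested only through a group where it was high. Its counts therefore describe the tested genes only, and the part of this selection in them was not tested.

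The called genes took a substantial part of the assigned reads, in shares that differed between the groups. Lane moved with day here too, and its part in the shares was not tested. The genes called higher took 19.3% to 22.6% of the assigned reads of a day 0 library and 26.1% to 37.7% of a worker library. The genes called lower took 22.6% to 24.8% at day 0 and 11.6% to 19.1% in the workers. Neither range overlapped between the groups, in the same libraries that chose the genes. The median level of the genes called higher was 41.5 CPM at day 0 and 81.4 CPM in the workers, and that of the genes called lower 72.6 and 45.7 CPM.

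The 5 worker ovaries were not equally far from day 0. The median log2 difference of the 1939 higher genes from their day 0 mean was 1.00, 0.92, 1.14, 0.72 and 0.38 in worker libraries 1 to 5, and that of the 2037 lower genes was -0.72, -0.69, -0.83, -0.62 and -0.28. Library 5 was nearest to day 0 in both lists and libraries 1, 2 and 3 were farthest. In library 5, 1090 of the higher genes (56.2%) lay above every day 0 library, against 1885 (97.2%) in library 3. Without library 5, 4610 genes were called, and without library 1, 2982.

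**Figure D2:**
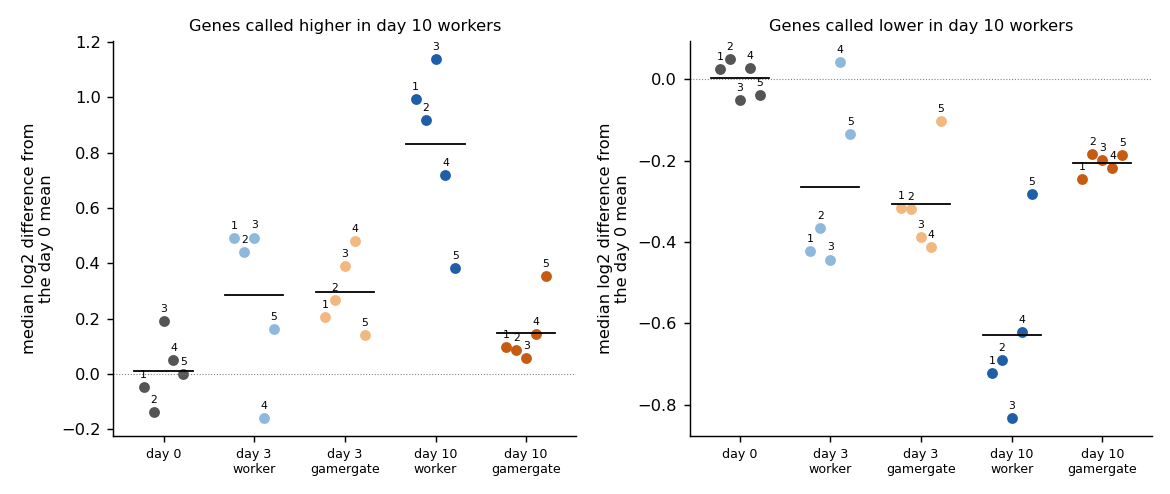
Each point is 1 ovary library, numbered as in the library names, and the vertical axis is the median log2 difference from the day 0 mean over the genes called higher (left) or lower (right) in day 10 workers, with a bar at each group's mean. Worker libraries at day 10 run from 0.38 to 1.14 on the left and from -0.83 to -0.28 on the right, and since these libraries chose the genes, their distance from day 0 is a description.

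Gene levels also varied more among the day 10 worker ovaries. Over 8162 genes with a mean of at least 10 CPM, the median SD of the log2 level was 0.207 at day 0 and 0.288 in the workers (n = 5 each), and it was larger in the workers for 5576 genes (68.3%). Among the 4497 of these that were not called, the medians were 0.217 and 0.266. The day 10 workers were also sequenced less deeply, and the part of depth in this spread was not tested.

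The other ovary groups place these lists in time and caste, but the comparisons with day 0 share the day 0 libraries and are only set side by side. Against day 0, 656 genes (7.17%) were called in day 3 workers, 374 higher and 282 lower, and 302 to 389 were called when any 1 of the 5 day 0 libraries was left out. In day 10 gamergates 2317 genes (25.3%) were called, 1240 higher and 1077 lower. Day 3 worker libraries 1, 2 and 3 had medians of 0.49, 0.44 and 0.49 over the genes higher in day 10 workers, while libraries 4 and 5 were at -0.16 and 0.16. The 5 day 10 gamergate libraries were at 0.06 to 0.35 for the same genes and at -0.24 to -0.18 for the lower genes. Every day 10 worker library thus lay beyond every day 10 gamergate library in both lists, which the worker libraries themselves defined. The day 10 gamergate libraries were all on the other lane of that flow cell.

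Since the genes carry no names, they were grouped by the tissue in which they were most abundant in the 30 day 3 libraries. These came from workers and gamergates alike, with the castes averaged, and none of them belongs to the comparison. A gene entered a tissue's group when it was called above both other tissues with a log2 difference over 3 and had at least 10 CPM. This gave 192 ovary genes, 371 fat body genes and 951 brain genes. In the ovary libraries of the whole series the ovary genes took 2.82% to 9.27% of the assigned reads, against 0.0489% to 0.192% in fat body and 0.148% to 0.218% in brain.

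Genes typical of the ovary were more often lower than higher in the day 10 workers. All 192 ovary genes were tested, of which 54 (28.1%) fell, 13 (6.77%) rose and 125 did not pass the test, beside 22.3% lower and 21.2% higher over all genes. Their median log2 difference was -0.50 (quartiles -1.11 and 0.05), against -0.02 for all genes, and 31 of the 54 fell more than 2-fold. The single members ranged from -5.33 to 2.12. With lane as a term the median was -0.12, and against the day 0 library of the same lane it was -0.11. In day 10 gamergates the same genes had a median of 0.41 against day 0.

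The share of reads in the ovary genes showed the same difference by library. It was 6.37%, 6.21%, 5.35%, 6.0% and 5.06% in day 0 libraries 1 to 5 and 3.31%, 3.01%, 2.82%, 4.69% and 5.29% in worker libraries 1 to 5. Worker libraries 1 to 4 lay below every day 0 library, and library 5 lay between the lowest and the next day 0 values. The means were 5.80% ± 0.566 and 3.82% ± 1.10 (SD, n = 5 each), a difference past the threshold in a two-sided exact permutation test (p = 0.0159, adjusted p = 0.0238 over the 6 single values compared, where 0.00794 is the smallest p this design allows). Among day 10 gamergates this share was 4.46% to 9.27%.

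Genes typical of fat body and of brain were more often higher than lower. Of the 371 fat body genes 247 had enough reads in the ovary to be tested, and of these 112 (45.3%) rose, 4 (1.62%) fell and 131 did not pass the test. Their median log2 difference was 0.91 (quartiles 0.15 and 1.89), and 96 of the 112 rose more than 2-fold. Of the 951 brain genes 231 were tested, of which 88 (38.1%) rose, 4 (1.73%) fell and 139 did not pass the test, with a median of 0.70 (quartiles 0.21 and 1.19). The brain genes that rose numbered 29 at a minimum count of 30 and 136 without a filter. Members with few reads in both groups were not tested, and a member that passed the filter only through the group where it was high had to differ, so these counts describe the tested members only. The 4 fat body genes that fell numbered 1 to 7, and the 4 brain genes 2 to 5, when 1 library was left out. With lane as a term the medians were 0.75 and 0.41. In day 10 gamergates the medians against day 0 were 0.15 and -0.12.

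The reads in these groups were few in the ovary. Fat body genes took 2.11%, 1.88%, 2.26%, 1.95% and 1.87% of the reads in day 0 libraries 1 to 5 and 4.10%, 3.99%, 3.22%, 1.92% and 2.43% in worker libraries 1 to 5. Worker libraries 1, 2, 3 and 5 lay above every day 0 library, and library 4 lay within their range. In fat body itself the same genes took 36.3% to 69.9% of the reads. The ovary means were 2.01% ± 0.166 and 3.13% ± 0.952 (SD, n = 5 each, two-sided exact permutation test, p = 0.0397, adjusted p = 0.0476).

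Brain genes took 0.531%, 0.537%, 0.635%, 0.529% and 0.553% of the reads at day 0 and 0.947%, 0.888%, 1.11%, 0.749% and 0.566% in the workers. Libraries 1 to 4 of the workers were above all day 0 libraries, and library 5 was within their range. The means were 0.557% ± 0.0445 and 0.853% ± 0.206 (SD, n = 5 each, two-sided exact permutation test, p = 0.0159, adjusted p = 0.0238). In brain the same genes took 10.7% to 20.3% of the reads. Within 1 flow cell only 2 day 0 libraries remain, and none of the 3 shares passed there (exact permutation test, adjusted p of 0.286 to 0.333, smallest p possible before adjustment 0.0476). Without day 0 library 1, 2, 4 or 5 the 3 shares also missed the threshold, at adjusted p of 0.0595 to 0.103 (exact permutation tests of 4 against 5). The fat body share alone also missed it without day 0 library 3 (adjusted p = 0.0714, exact permutation test) and without worker library 1 or 2 (0.0571 each), while every difference kept its direction. Within the flow cell the differences were -1.85 percentage points for ovary genes, 1.03 for fat body genes and 0.27 for brain genes.

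**Figure D3:**
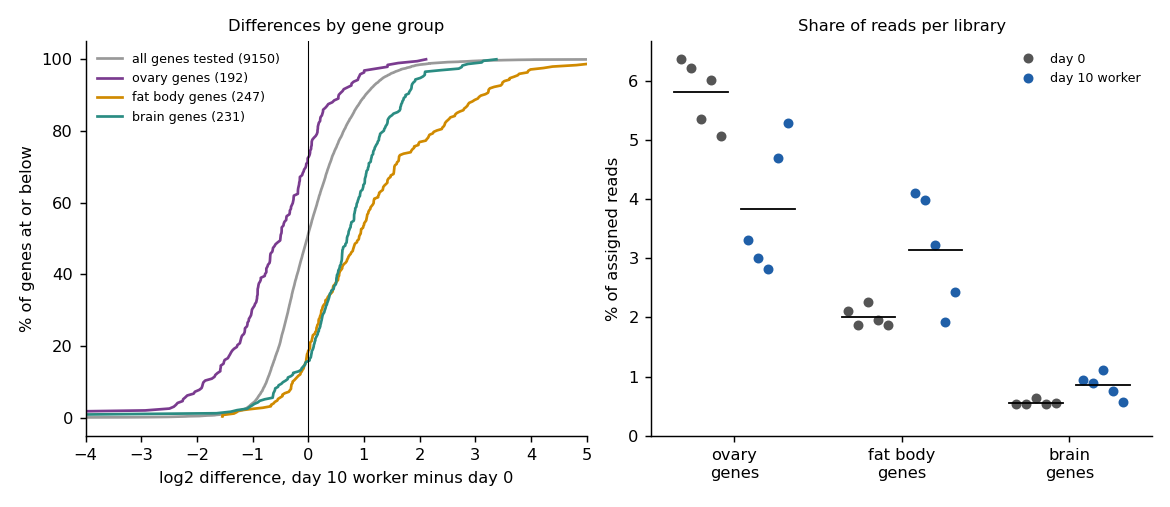
Left, the percentage of genes (vertical axis) at or below each log2 difference, day 10 worker minus day 0 (horizontal axis, drawn from -4 to 5), for all genes tested and for the 3 tissue groups. Right, the percentage of assigned reads in each group, with 1 point per library in the order of its number and a bar at the mean; the ovary genes average 5.80% at day 0 and 3.82% in workers, the fat body genes 2.01% and 3.13%, and the brain genes 0.557% and 0.853%.

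Most of the genes that rose belonged to neither group, as did most genes tested, since the fat body and brain groups held 247 and 231 of the 9150. Tested members of these groups rose more often, 45.3% and 38.1% of them against 21.2% of all genes. Of the 1939 higher genes 1739 lay outside the fat body and brain groups, and their median log2 difference from day 0 was 0.94, 0.86, 1.08, 0.71 and 0.36 in worker libraries 1 to 5. These libraries also chose the genes, so the direction is a description. The fat body group itself had medians of 1.21, 1.04, 1.00, 0.17 and 0.32 in the same libraries. The part of fat body or brain tissue in the result was not tested.

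A wider division placed each gene with a day 3 level in the tissue where that level was highest. Of 3407 genes highest in ovary, 475 (13.9%) rose and 1117 (32.8%) fell, with a median of -0.22. The 2741 genes highest in fat body were balanced, with 613 (22.4%) higher, 604 (22.0%) lower and a median of -0.04. Of 2785 genes highest in brain, 821 (29.5%) rose and 308 (11.1%) fell, with a median of 0.25. The fat body and brain medians thus stood in the opposite order to those of the stricter groups.

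Other measures of each library were compared in the same way. The 100 most-read genes of a library took 14.1% ± 0.295 of the assigned reads at day 0 and 15.1% ± 0.797 in the workers (SD, n = 5 each, two-sided exact permutation test, p = 0.0159, adjusted p = 0.0238). This direction turned for the 10 most-read genes, whose share was 0.36 percentage points lower in the workers (exact permutation test, p = 0.0476, adjusted p = 0.0571). Reads outside annotated genes were 41.4% ± 1.51 of a day 0 library and 38.3% ± 1.20 of a worker library (n = 5 each, exact permutation test, p = 0.0159, adjusted p = 0.0238). Both calls were lost without day 0 library 1, 4 or 5, and that of the 100 most-read genes also without day 0 library 2, at adjusted p of 0.0595 to 0.0762 (exact permutation tests of 4 against 5). At an equal depth of 737818 reads, 11426 ± 280 genes had a read at day 0 and 11894 ± 311 in the workers, which missed the threshold (n = 5 each, exact permutation test, p = 0.0635, adjusted p = 0.0635).

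Genes with 0 reads in 1 group and reads in the other mostly had fewer than 10 reads there. The day 0 libraries together held 14530239 assigned reads and the worker libraries 7555002, and the part of depth in the counts that follow was not tested. Of 1010 genes with 0 reads at day 0 and a read in the workers, 5 had 10 or more reads over the worker libraries, and none of the 5 had enough to be tested. Of 1465 genes with reads at day 0 and 0 in the workers, 20 had 10 or more reads at day 0 and 3 of these were tested. Of the 3, edgeR's quasi-likelihood test called 0, with 0 at an unadjusted p below 0.05, while DESeq2 called 3.

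The 4 genes described singly are the pair with the largest increases and the pair with the largest decreases among called genes whose libraries did not overlap, where the higher group averaged 10 CPM or more and the lower group 1 CPM or more. The rule left 812 higher and 1077 lower genes to choose from, and it used the day 10 worker and day 0 ovary libraries. Tests below that reuse these libraries, against another tissue or against gamergates, thus lean toward a difference. Levels are in CPM and are not adjusted for gene length, so they are compared between libraries and not between genes.

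HSALG004753.2, a fat body gene whose day 3 level there came mostly from 2 worker libraries, was low in every day 0 ovary, at 0.725, 4.12, 3.68, 2.99 and 2.15 CPM in libraries 1 to 5. In the day 10 workers it stood at 510.8, 151, 137, 26.2 and 55.7 CPM. The lowest worker was thus above the highest day 0 library, with library 1 far above the rest of its group. The means were 2.73 ± 1.35 and 176 ± 194 CPM (SD, n = 5 each), and the log2 difference was 5.91 (SE 1.10, adjusted p = 0.000714, edgeR's quasi-likelihood test). It was 4.96 without worker library 1.

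HSALG004753.2 was also uneven in some other groups. In day 3 worker ovaries it had 185 and 160 CPM in libraries 1 and 2 and 1.36 to 4.89 CPM in the other 3. The libraries of the same numbers were also the high ones in day 3 worker fat body, at 907 and 4135 CPM against 0 to 7.32, and in day 3 worker brain, at 12.8 and 25.4 CPM against 0. Day 3 gamergate fat body had 39.4 and 122 CPM in libraries 2 and 5 and 0 in the other 3. In the fat body of day 10 workers it stood at 62.6, 2.12, 31.8, 1.38 and 2.16 CPM, against 0 to 1.46 CPM at day 0, a log2 difference of 4.38 that missed the threshold (adjusted p = 0.211, edgeR's quasi-likelihood test). The day 10 worker mean was 20.0 CPM in fat body and 176 CPM in ovary, but these were scaled in different fits, so their ratio is not read. In day 10 gamergate ovaries it had 0 to 1.02 CPM, and the gamergates were lower than the day 10 workers by a log2 difference of -8.21 (adjusted p = 0.000484, edgeR's quasi-likelihood test).

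HSALG005766.2, also a fat body gene by its day 3 levels, had 0, 0.772, 8.27, 3.39 and 2.46 CPM in day 0 ovaries, where the 0 allows up to 2.18 CPM (3 reads, counting error only). The day 10 workers had 121, 272, 132, 14.5 and 44.3 CPM, again with every worker above every day 0 library and with libraries 4 and 5 the lowest. The means were 2.98 ± 3.25 and 117 ± 100 CPM (SD, n = 5 each), and the log2 difference was 5.26 (SE 1.01, adjusted p = 0.00083, edgeR's quasi-likelihood test).

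In fat body HSALG005766.2 was abundant at both times and also rose. Its level there was 2658, 655, 669, 1756 and 414 CPM at day 0 and 3547, 3434, 5825, 4458 and 1964 CPM in day 10 workers, so that the groups overlapped through worker library 5 and day 0 library 1. The log2 difference in fat body was 1.63 (SE 0.41, adjusted p = 0.0133, edgeR's quasi-likelihood test). The change in the ovary, for which the gene was chosen, was the larger, by 3.50 (SE 0.94, adjusted p = 0.0163 for the difference of the changes, same test). In day 10 gamergate ovaries the gene had 0 to 7.79 CPM.

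HSALG028357.1, an ovary gene by its day 3 levels, fell. It had 38.4, 36.0, 29.4, 29.1 and 40.9 CPM in the day 0 ovaries and 2.64, 0, 0, 10.9 and 20.5 CPM in the day 10 workers. All workers lay below all day 0 libraries, with libraries 2 and 3 without a read, which allows up to 2.26 and 4.12 CPM, and library 5 the highest. The means were 34.8 ± 5.32 and 6.79 ± 8.84 CPM (SD, n = 5 each), and the log2 difference was -2.49 (SE 0.57, adjusted p = 0.0023, edgeR's quasi-likelihood test). Day 10 gamergate ovaries had 30.5 to 55.9 CPM, above every day 10 worker, and the caste difference at day 10 was 2.72 (adjusted p = 0.00114, same test).

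HSALG009128.2, in none of the tissue groups, had 32.6, 68.2, 18.8, 23.7 and 22.4 CPM in the day 0 ovaries and 4.11, 2.26, 8.23, 9.96 and 12.5 CPM in the day 10 workers. The groups did not overlap, and day 0 library 2 stood far above the other day 0 libraries. The means were 33.2 ± 20.2 and 7.41 ± 4.20 CPM (SD, n = 5 each), with a log2 difference of -2.27 (SE 0.43, adjusted p = 0.000584, edgeR's quasi-likelihood test) and of -1.82 without day 0 library 2.

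In brain HSALG009128.2 had 77.5 ± 13.6 CPM at day 0 and 85.1 ± 10.3 CPM in day 10 workers (SD, n = 5 each). Its change in the ovary, for which the gene was chosen, differed from that in brain by -2.52 (SE 0.44, adjusted p = 0.000691, edgeR's quasi-likelihood test). In day 10 gamergate ovaries it was also lower than at day 0, by a log2 difference of -1.63 (adjusted p = 0.00564, same test), and the castes at day 10 differed by 0.64, which missed the threshold (adjusted p = 0.265). With lane as a term none of the 4 genes passed, at differences of 5.58, 3.81, -2.25 and -1.45 for the 4 in the order given (edgeR, adjusted p of 0.243 to 0.338).

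**Figure D4:**
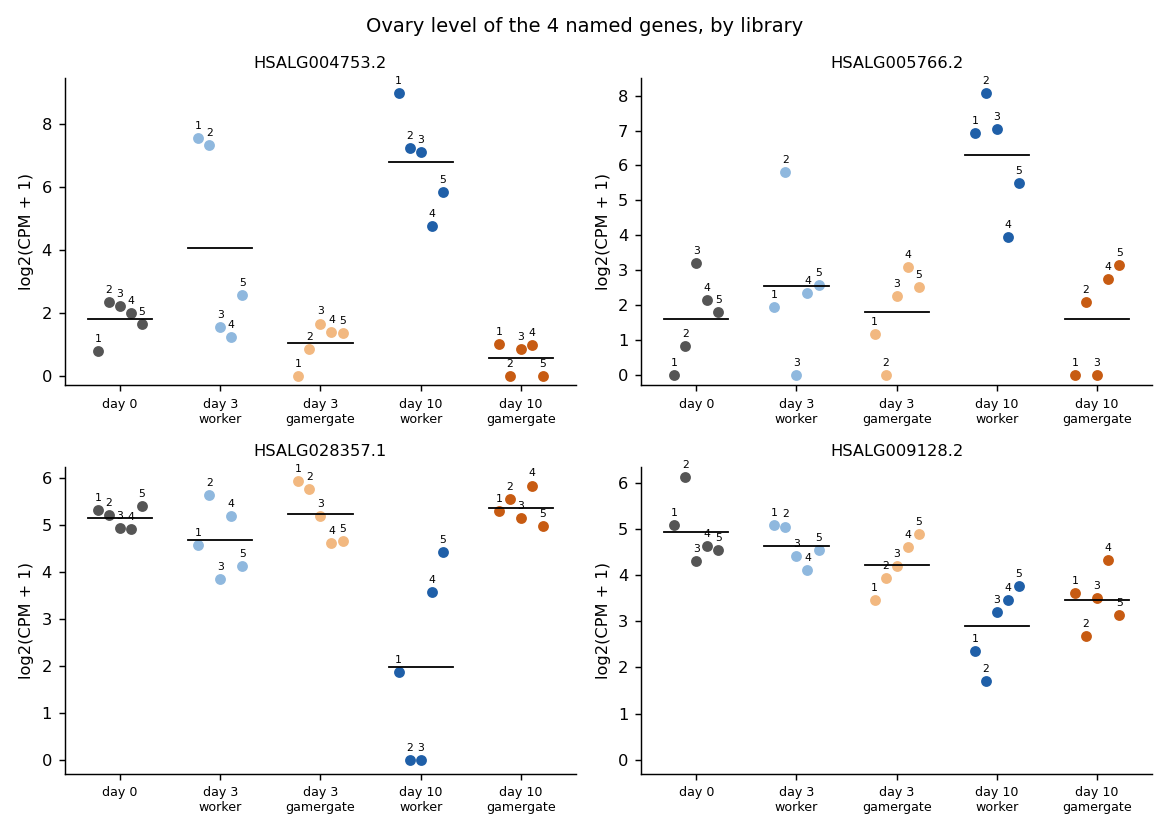
Ovary level of each of the 4 genes on the log2(CPM + 1) scale (vertical axis), with 1 numbered point per library and a bar at the mean of these log values, for the 5 ovary groups. Day 10 workers stand above day 0 for HSALG004753.2 and HSALG005766.2 and below it for HSALG028357.1 and HSALG009128.2, with no overlap, and for the first 3 genes day 10 gamergates do not overlap the day 10 workers.

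The same pair of groups exists for fat body and brain, in libraries that are not shared with the ovary, although worker and day 0 libraries of the other tissues were on the same lanes. The labels do not say whether libraries of the same number in different tissues came from the same ant, so the tissues may not be independent. In worker fat body 655 of 7941 genes (8.25%) were higher and 407 (5.13%) lower at day 10, and in worker brain 590 of 9886 (5.97%) were higher and 969 (9.8%) lower. The counts depended on single libraries. Both directions together, 512 to 657 genes were called in fat body without day 0 number 1 or 2 or worker number 1, 2 or 3, and 1746 without worker number 5. In brain 386 to 763 were called without day 0 number 5 or worker number 1, 2, 3 or 4.

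Genes that changed in the worker ovary tended to have the same direction in both other tissues. The genes higher in worker ovary made up 1605 of the 7941 tested in fat body. There 328 (20.4%) were higher and 19 (1.18%) lower, and these 328 are 50.1% of all genes higher in worker fat body. In brain they made up 1777 of the 9886 tested. Of these, 283 (15.9%) were higher and 16 (0.900%) lower, and the 283 are 48.0% of the genes higher in worker brain. The median log2 difference of these lists was 0.45 in fat body and 0.49 in brain.

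The genes lower in worker ovary made up 1848 of the 7941 tested in fat body. There 156 (8.44%) were lower and 17 (0.920%) higher, and the 156 are 38.3% of the genes lower there. In brain they made up 1954 of the 9886 tested. Of these, 495 (25.3%) were lower and 4 (0.205%) higher, and the 495 are 51.1% of the genes lower there. The medians were -0.33 in fat body and -0.55 in brain. Lane moved largely with day in all 3 tissues, where of the day 0 libraries only number 3 shared the lane of the workers. The part of lane in the direction these lists share was not tested. With lane as a term 104 genes were called in worker fat body and 26 in worker brain.

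**Figure D5:**
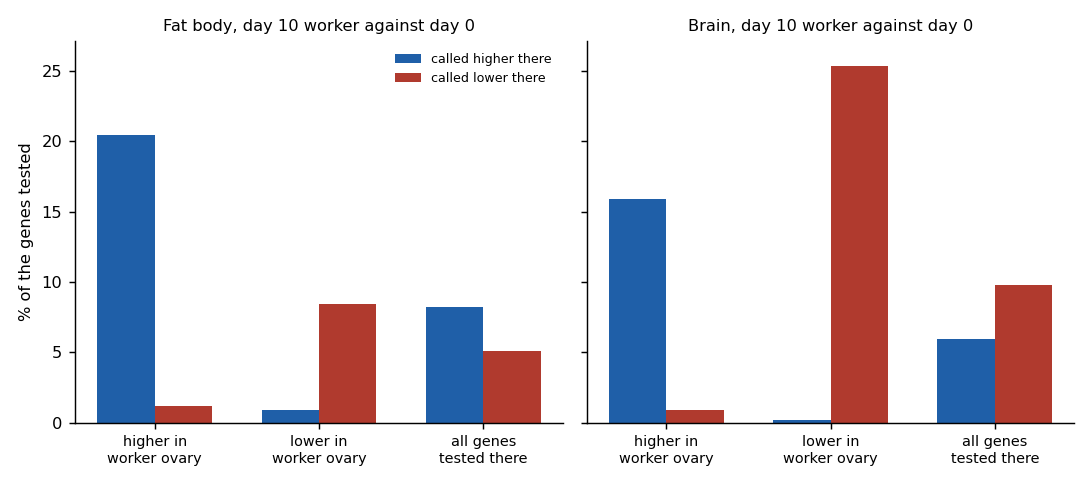
Percentage of genes called higher (blue) or lower (red) at day 10 in worker fat body (left) and worker brain (right), for genes called higher in worker ovary, genes called lower in worker ovary and all genes tested in that tissue. In fat body the bars for genes higher in ovary are 20.4% higher and 1.18% lower, beside 8.25% and 5.13% for all genes, and in brain the bars for genes lower in ovary are 25.3% lower and 0.205% higher, beside 9.8% and 5.97%.

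The difference of the changes was tested directly over 11156 genes in all 75 libraries. The fit took libraries of the same number in different tissues as separate samples. The worker change differed between ovary and fat body for 584 genes (5.23%), with 272 changing more upward in the ovary and 312 more downward. Between ovary and brain it differed for 85 genes (0.762%), with 68 more upward in the ovary and 17 more downward. With lane as a term, which the tissues share, the counts were 525 and 75. With the 4 groups of each test fitted alone they were 201 and 23, and they were also lower when some library numbers were left out. Without worker number 1, 2 or 3 they were 244 to 379 for fat body and 27 to 49 for brain, and without day 0 number 1 or 2 that for brain was 56 or 41.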

How the data were processed

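RNA was Trizol-extracted and DNase-treated, polyadenylated RNA was selected, and NEBNext Ultra II libraries were run on Illumina HiSeq, per the labels' protocols. The tools named are Trimmomatic, STAR 2.5.3a and HTSeq, per the submitters' processing notes. The authors deposited whole-number read counts per gene, not normalized, for 20659 gene models in 75 libraries. The sources used here do not name a strand setting; the build and annotation are likewise not given in the sources used here. Entries for reads assigned to no gene, 5 in all, stayed out of library sizes and tests. In the 10 libraries compared they held 36.4% to 43.5% of reads outside genes, 0.812% to 1.34% ambiguous reads and 4.07% to 5.45% reads aligned to several places. No 2 libraries held identical values.

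The 25 ovary libraries were fitted together with edgeR 4.0.16 in R 4.3.3, with 1 coefficient per group. The filter was filterByExpr with a minimum count of 10 and a minimum total of 15, scaling was by TMM, and the robust quasi-likelihood test was used with Benjamini-Hochberg adjustment over all genes tested and a threshold of 0.05. The biological coefficient of variation was 0.282. The SE is the absolute log2 difference divided by the square root of F, so it restates the test. CPM are counts per 1e+06 assigned reads at TMM-scaled library sizes. The scaling of ovary levels came from the fit of the 25 ovary libraries. That of fat body and brain levels of single genes came from the fit over all 75, so CPM are not compared between ovary and these tissues. Differences between tissues were tested in 1 fit over all 75 libraries. For single values of a library, two-sided exact permutation tests ran over 252 regroupings. Flow cell and lane are those recorded for each library.

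The genes printed singly are the 2 per direction with the largest log2 difference among called genes without overlap between the groups, with at least 10 CPM in the higher and 1 CPM in the lower group, since the identifiers carry no names. The lists of marker genes chosen by name could not be applied. The comparison, the tissue groups and the lists were chosen with earlier results of these data known. Alternatives tried were RLE and upper quartile scaling, no filter and a minimum count of 30, DESeq2 1.42.0, fits of the groups compared alone, lane as a term, day 0 libraries by flow cell and lane, a replicate block, other limits for the tissue groups and single values, and leaving out each library.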

Additional observations from a re-analysis of the deposited data

Results flagged for a closer look

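Single libraries stood apart from the other 4 of their group, by the gap to the nearest library as a part of the group's range, in 4 of the 38 sets of 5 values examined. Chance alone gives such a gap in about 5% of sets of independent, normally distributed values. The sets here share libraries and include CPM of genes chosen from those libraries, so the 5% is not their own chance rate. The share of reads in brain genes was 0.635% in day 0 library 3, above the other day 0 libraries. The median distance of a gene's log2 level from the mean of the other libraries of its group was 0.132 in day 0 library 4, below the other day 0 libraries. HSALG004753.2 was at 510.8 CPM in day 10 worker library 1, and HSALG009128.2 was at 68.2 CPM in day 0 library 2, each far above its group.

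Differences between tissues and castes were tested with edgeR's quasi-likelihood test. The worker change of 584 genes differed between ovary and fat body, and that of 85 genes between ovary and brain. Of the genes described singly, the change of HSALG005766.2 in the ovary exceeded that in fat body by 3.50 on the log2 scale, and the change of HSALG009128.2 in the ovary differed from that in brain by -2.52. At day 10, gamergate ovaries differed from worker ovaries by -8.21 for HSALG004753.2, by -5.04 for HSALG005766.2 and by 2.72 for HSALG028357.1, and the gamergate libraries were on the other lane of the flow cell. Ovary libraries that chose these genes were reused in their tests, so the differences of single genes are descriptions.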

How the results depend on the processing

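Over 28 results, 245 settings that leave out no single library gave 167 values scored as the same, 77 that moved and 1 that reversed. The 270 that leave out 1 library gave 213 scored as the same and 57 that were not. A tested value was the same when it kept its direction and its side of the threshold. For a count it meant a set ratio to the main count, so 2982 ovary calls against 3976 scored as the same. For the median of a tissue group it meant a move smaller than its SD between worker libraries. The reversed value was the share of reads in the 10 most-read genes, -0.363 percentage points in workers. The cause of the moved values was not tested, and settings with 1 or 2 day 0 libraries have fewer samples.

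Calls in the day 10 worker ovary numbered 3942 with RLE scaling, 3900 with upper quartile scaling, 3704 without a filter, 3312 at a minimum count of 30, 4202 with DESeq2 and 4233 with the 2 groups alone. With flow cell and lane as a term, and against the day 0 library of the same lane alone, 0 were called, higher or lower, and 0 in either direction among ovary, fat body and brain genes, with an ovary gene median of -0.12 and -0.11. Against the day 0 libraries of the day 10 flow cell only, 1068 were called, 368 higher and 700 lower. These included 3 higher and 10 lower ovary genes, 34 and 0 fat body genes and 15 and 2 brain genes. The shares then differed by -1.85 points for ovary genes, 1.03 for fat body genes, 0.271 for brain genes, -3.40 for reads outside genes and 0.875 for the 100 most-read genes, and none passed. HSALG005766.2 (4.38, adjusted p = 0.0543) and HSALG028357.1 (-2.26, adjusted p = 0.0503) missed the threshold there by edgeR.

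Brain genes called higher numbered 136 without a filter and 29 at a minimum count of 30. Called lower were 2 fat body genes and 1 brain gene at that minimum, 1 brain gene with the 2 groups alone and 2 with the replicate block. A log2 difference over 2 for a tissue group gave 38 higher and 92 lower ovary genes, 170 and 23 fat body genes and 166 and 8 brain genes, and a fat body share difference of 1.52 points that missed the threshold. Over 4 it gave 4 higher ovary genes, 1 lower fat body gene, a fat body median of 1.54, and 45 higher and 1 lower brain genes. With 5 reads for a detected gene, workers had 343.6 more genes, past the threshold. Day 3 workers had 307 calls without a filter, 1060 with DESeq2, 276 with the 2 groups alone and 16 with lane, and day 10 gamergates 15 with lane. The worker change differed between ovary and fat body for 388 genes without a filter and 201 with the 4 groups alone, and between ovary and brain for 23 with the 4 groups alone. Worker fat body had 104 calls with lane and 393 with the 2 groups alone, and worker brain 932 without a filter, 26 with lane and 506 with the 2 groups alone.

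The replicate block gave 4160 calls in the ovary, 3859 of them among the 3976, and 2629 in worker brain. The labels do not say whether the numbers pair the ovaries. Deviations of same-numbered libraries correlated at -0.15, -0.19, 0.28, -0.02 and -0.25, and 1 of 5 worker libraries correlated best with its own number. So few libraries cannot settle whether a pairing exists.

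Leaving out 1 library gave 2982 to 4610 ovary calls, 1459 to 2201 higher and 1472 to 2409 lower. HSALG004753.2 ran from 4.96 to 6.18, HSALG005766.2 from 4.70 to 5.86, HSALG028357.1 from -3.37 to -2.13 and HSALG009128.2 from -2.55 to -1.82, all with an edgeR adjusted p of at most 0.0118. Ovary gene medians ran from -0.66 to -0.41, with 10 to 15 higher and 38 to 71 lower, fat body medians from 0.72 to 1.05, with 79 to 128 and 1 to 7, and brain medians from 0.63 to 0.86, with 61 to 122 and 2 to 5. Day 3 workers had 302 to 389 calls and day 10 gamergates 1782 to 2258. Differences between tissues ran from 244 to 715 genes for fat body and 27 to 111 for brain, and calls in worker fat body from 512 to 1746 and in worker brain from 386 to 1762. Share differences ran from -2.34 to -1.72 points for ovary genes, 0.878 to 1.42 for fat body genes, 0.231 to 0.367 for brain genes, -3.59 to -2.61 for reads outside genes and 0.683 to 1.18 for the 100 most-read genes, and the genes detected from 370.5 to 556.5. Each share missed the threshold without some libraries, at an adjusted p of up to 0.103 by exact permutation tests of 4 against 5, whose smallest p is 0.00794. Depth limits what can be said of genes under a few CPM in the shallower worker libraries.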
